A study of Homo sapiens with 4 samples.

Results

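Translation initiation factors other than eIF5A were examined at the transcript level in a pair of established human liver cancer lines, Huh1 and Huh7, both from hepatocellular carcinoma. Members were the genes whose symbol starts with EIF1, EIF2, EIF3, EIF4, EIF5 or EIF6, leaving out EIF5A, EIF5A2, EIF5AL1 and EIF1AY. This gave 52 of the 18398 transcripts in the deposited tables, 1 transcript per gene. RNA sequencing was run on Huh1 with negative control siRNA, Huh1 with ODC1 siRNA, Huh7 with negative control siRNA and Huh7 with ODC1 siRNA, with 1 library for each. ODC1 encodes ornithine decarboxylase, which makes the polyamine putrescine. Every library comes from cells given an siRNA, so none is from untransfected cells, and the sources used here state neither the dose nor the time of treatment.

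Initiation factors bring the ribosome to the start codon of an mRNA. The eIF4F complex binds the mRNA cap, eIF2 with GTP delivers the initiator tRNA, eIF3 organises the small ribosomal subunit, eIF1 and eIF1A hold it in a scanning state, and eIF5 and eIF5B complete the joining of the large subunit. The step is throttled at known points: the EIF2AK kinases phosphorylate eIF2 so that eIF2B can no longer recharge it, and the 4E-binding proteins hold the cap-binding factor eIF4E away from its partners until mTORC1 phosphorylates them. Polyamines are tied to translation because spermidine is the donor of the hypusine residue of eIF5A, the factor left out here.

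The prefix rule also took genes that are not initiation factors. EIF2C1 to EIF2C4 are older symbols of the 4 Argonaute genes, whose proteins carry small RNAs, and they were kept as a group of their own. EIF4ENIF1 encodes an eIF4E-transporting protein and EIF1AD a nuclear protein with a domain like that of eIF1A. EIF3C, EIF3CL and EIF4G2 are not analysed here. EIF4E1B, a germ-line relative of eIF4E, was at 0 RPKM in all 4 libraries, and the other 51 members reached at least 1 RPKM in some library.

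The values were RPKM, reads scaled to the length of the transcript and the depth of the library, so genes can be compared within a library. Where a pair of values is given for a line, control siRNA comes first and ODC1 siRNA second. Depth recovered from the lowest values was between 10215332 and 13384836 reads per library. The targeted transcript ODC1 stood at 103 RPKM with control and 25.01 RPKM with ODC1 siRNA in Huh1, and Huh7 gave 167 and 7.50 RPKM, as the labels say. All 9 hepatocyte markers, among them ALB and HNF4A, were at 5.10 RPKM or more in every library. Of the markers of other cell types, HBB and CDH5 were at 0 throughout and PTPRC reached at most 0.147 RPKM. The 5 fibroblast markers summed to between 12.1 and 15.7 RPKM in Huh1 and between 282 and 368 RPKM in Huh7, where COL1A1 and LUM lead. CD68 stood at 23.3 and 24.8 RPKM in Huh1 cells and 3.71 and 6.05 RPKM in those of Huh7. What these differences have to do with the line differences described here was not tested.

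**Figure D1:**
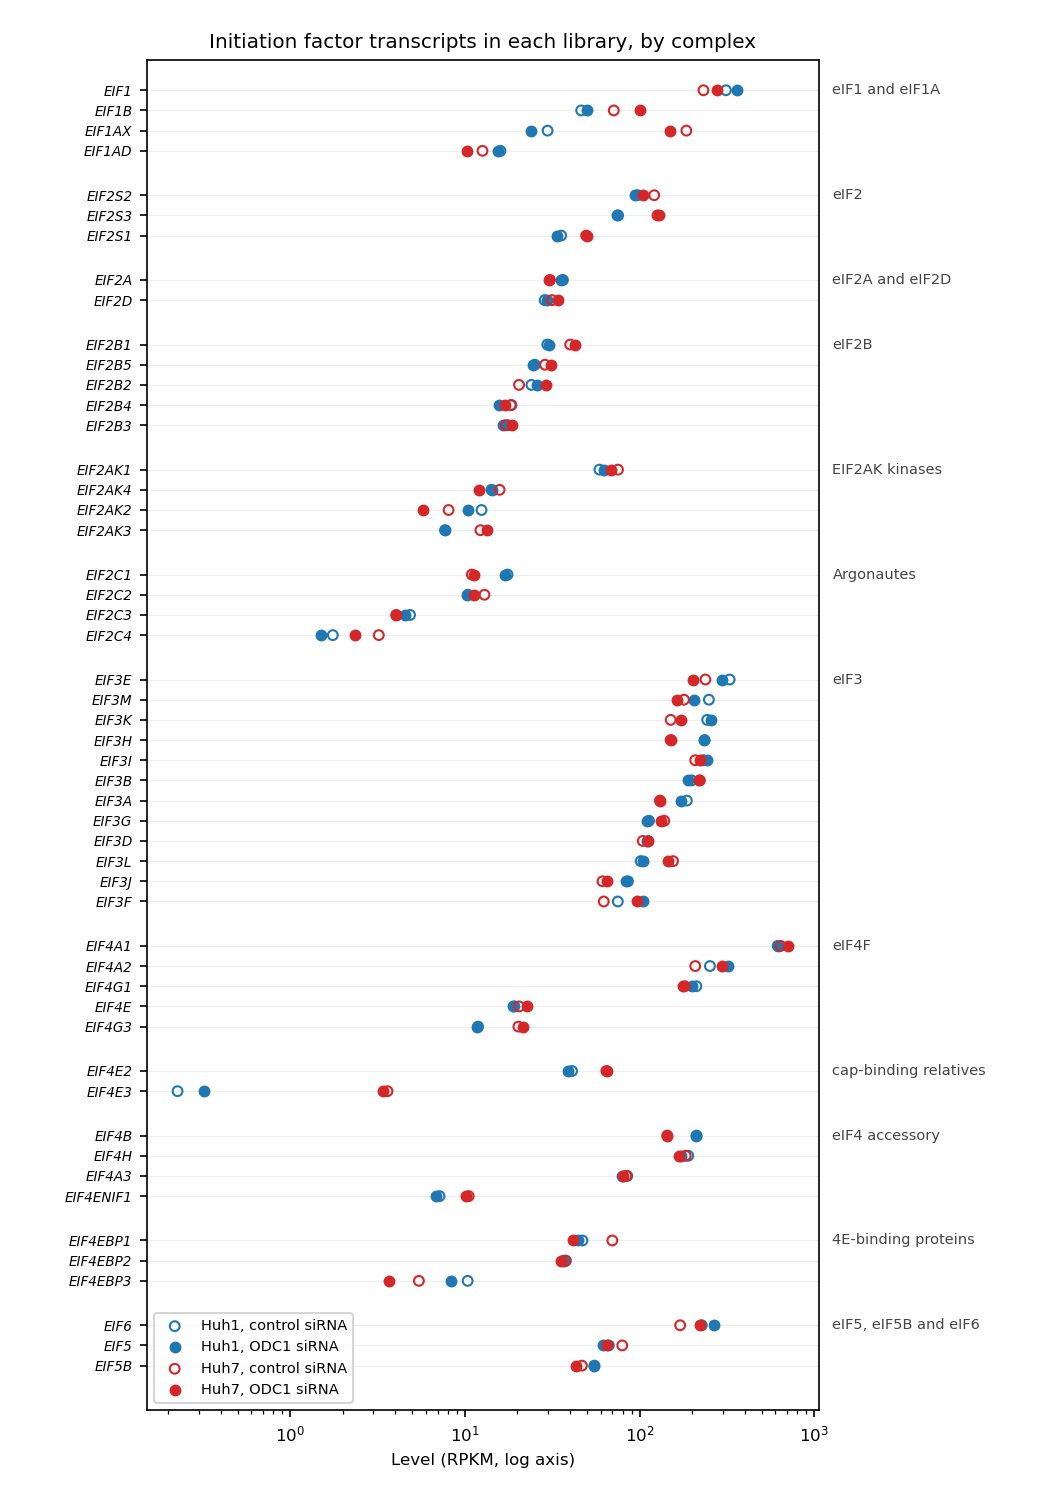
Level of each of the 51 members reaching 1 RPKM (RPKM, log axis), grouped by complex and ordered by the Huh1 control library. Circles are single libraries, blue for Huh1 and red for Huh7, open for control and filled for ODC1 siRNA. EIF4A1 is the highest in each library (618 to 712 RPKM), the eIF3 subunits lie between 61.4 and 328 RPKM, and EIF1AX and EIF4E3 show the widest gaps between the lines.

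The first comparison asked which initiation factors differed between ODC1 and control siRNA. Changes were differences in log2(RPKM + 1), given per line and then over both lines with limma, in which the lines are the only repeat of the treatment. EIF3F, the f subunit of eIF3, and EIF4A2, the second RNA helicase of the eIF4F complex, rose over both lines, and no member fell. The other 49 members tested did not pass the threshold, an adjusted p of 0.05 over all 12039 transcripts tested. Among all transcripts 1.5% passed as higher and 0.615% as lower, against 2 and 0 of 51 members. Without adjustment, limma gave a p under 0.05 to 6 members as higher and 8 as lower, which is 27.5% of members against 19.0% of all transcripts. The median change of the members was -0.03 in Huh1 and -0.01 in Huh7, beside 0.02 and -0.002 over all transcripts tested. Their median size of change, without the sign, was 0.07 and 0.12, beside 0.11 and 0.16.

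With upper quartile scaling 3 members passed as higher and 1 as lower, and the split over all transcripts moved from 181 higher and 74 lower to 290 and 195. The limma p-values rest on 1 residual degree of freedom per gene, moderated over all genes. That residual is how far the siRNA difference in Huh1 disagrees with that in Huh7. The labels do not say whether the cultures were independent, and the spread between cultures of 1 condition is not measured.

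Within a line there is no replicate, and changes were counted by size at 1.5-fold. In Huh1 none of the 50 members with at least 1 RPKM in either library reached it, where 1.01% of all transcripts did so upward and 0.367% downward. In Huh7 EIF3F did so upward and EIF4EBP1 downward, 1 each of 51 members, where 2.53% and 3.16% of all transcripts did. With 1 member each, neither count stands apart from these shares.

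**Figure D2:**
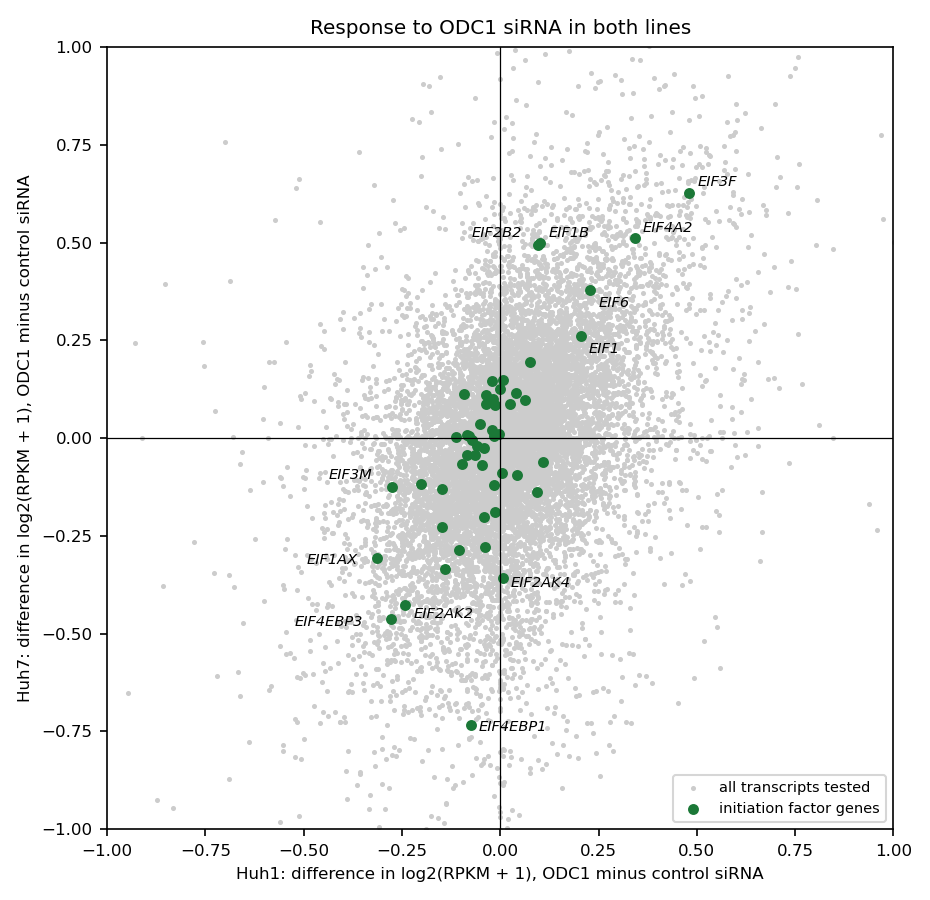
Difference in log2(RPKM + 1) between ODC1 and control siRNA in Huh1 (horizontal axis) and Huh7 (vertical axis), 1 point per transcript, members in green and all 12039 transcripts tested in grey. EIF3F (0.48 and 0.63) and EIF4A2 (0.34 and 0.51) lie at the upper right, EIF1AX (-0.31 and -0.31) at the lower left and EIF4EBP1 (-0.08 and -0.73) low near the vertical line. The axes stop at 1, which leaves out 91 transcripts, none of them a member.

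EIF3F had the largest mean change of the members. It encodes a subunit of eIF3 with an MPN domain and has been studied as a factor that links eIF3 to mTORC1 signalling. It stood at 75.1 RPKM with control and 105 RPKM with ODC1 siRNA in Huh1, while Huh7 gave 62.4 and 96.96 RPKM. Both ODC1 siRNA libraries were above both control libraries, an order whose share over all transcripts was not counted. Over both lines it rose by 0.55 on the log2 scale (SE 0.071, limma adjusted p = 0.0157), and the ratio was 1.40 in Huh1 (95% interval 1.30 to 1.51) and 1.55 in Huh7 (95% interval 1.43 to 1.69). The reads behind these exact binomial intervals were 1264 with control and 1485 with ODC1 siRNA for Huh1 and 957 and 1245 for Huh7, and the intervals take in counting error alone. The call was lost with no filter on low values (adjusted p = 0.517), with limma without trend (adjusted p = 0.204) and without a line term (adjusted p = 1.00).

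EIF3F was among the lower eIF3 transcripts in each library. In the Huh1 control library it was the lowest of the 12 eIF3 transcripts, at 37.8% of the median of the other subunits, and with ODC1 siRNA it was at 55.2% and ranked 3 from the lowest. In Huh7 it was at 41.4% with control and 63.8% with ODC1 siRNA, where only EIF3J was lower. EIF3J is a loosely bound subunit that is not part of the stable core.

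None of the remaining eIF3 subunits passed. EIF3A and EIF3B, which carry the core of the complex, were at -0.11 and -0.06 in Huh1 and at 0.001 and -0.02 in Huh7. EIF3H, like EIF3F an MPN-domain subunit, was at 236 then 235 RPKM in Huh1, with 151 then 152 RPKM for Huh7. The ratios were 0.998 and 1.01. EIF3H was thus level where EIF3F was higher, and the difference between these subunits was not tested. EIF3M stood at 249.6 and 206 RPKM in Huh1, and Huh7 gave 179.7 and 165 RPKM (log2 fold change -0.20, limma adjusted p = 0.15). EIF3E, the highest subunit in 3 of the libraries, was at 328 and 296 RPKM in Huh1 cells and 238 and 203 RPKM in those of Huh7 (-0.19, limma adjusted p = 0.142). Both were lower with ODC1 siRNA in each line without passing. Over the 12 eIF3 genes, 3 were positive in both lines, 4 negative in both and 5 of opposite sign, with medians of -0.03 in Huh1 and 0.01 in Huh7.

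EIF4A2 encodes a DEAD-box RNA helicase that unwinds structure ahead of the ribosome and is a close paralog of EIF4A1. It stood at 253 RPKM with control and 321 RPKM with ODC1 siRNA in Huh1, and the Huh7 values were 208 and 297 RPKM. Both ODC1 siRNA libraries again lay above both control libraries, with the same limit as for EIF3F. It rose by 0.43 on the log2 scale (SE 0.064, limma adjusted p = 0.0221). The call was lost with quantile normalization (adjusted p = 0.0534), a pseudocount of 0.1 (adjusted p = 0.0525), no filter (adjusted p = 0.517), limma without trend (adjusted p = 0.232) and no line term (adjusted p = 1.00).

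EIF4A1, the more abundant paralog, stood at 618 then 621 RPKM in Huh1, with 643 then 712 RPKM for Huh7 (log2 fold change 0.08, limma adjusted p = 0.508). The EIF4A2 share of the summed EIF4A1 and EIF4A2 level was 29.04% with control and 34.04% with ODC1 siRNA in Huh1, and 24.5% and 29.5% in Huh7. EIF4A1 and EIF4A2 are similar in sequence, and how reads that fit both were counted is not stated in the sources used here.

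The stretches before the transcription starts of EIF3F and EIF4A2 are shown because these genes rose together, and that of EIF1AX because it differed most between the lines. They are the 120 bases before the start in RefSeq (GRCh38.p14), with the searched motifs in capitals. That of EIF3F lies at chr11:7987217-7987336 on the plus strand, that of EIF4A2 at chr3:186783457-186783576 on the plus strand and that of EIF1AX at chrX:20141839-20141958 on the minus strand.
EIF3F: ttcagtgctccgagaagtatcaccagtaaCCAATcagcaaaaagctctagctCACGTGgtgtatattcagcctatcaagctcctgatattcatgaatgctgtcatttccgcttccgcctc
EIF4A2: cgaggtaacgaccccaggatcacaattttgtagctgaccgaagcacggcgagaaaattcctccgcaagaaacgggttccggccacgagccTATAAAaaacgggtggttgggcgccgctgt
EIF1AX: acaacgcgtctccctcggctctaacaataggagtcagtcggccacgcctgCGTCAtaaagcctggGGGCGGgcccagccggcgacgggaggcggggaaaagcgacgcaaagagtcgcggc
The capitals are a CCAAT box (CCAAT) and an E-box (CACGTG) in EIF3F, a TATA box (TATAAA) in EIF4A2, and TGACG on the opposite strand, the core of the cAMP response element, with a GC box (GGGCGG) in EIF1AX. No motif searched was shared by the EIF3F and EIF4A2 stretches.

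Over the 250 bases before the start, RefSeq gave 52 windows for 43 members, and windows of 1 gene can overlap. On either strand, CACGTG was in 21.2% of member windows and in 6.34% of all 35093 windows, GGGCGG in 67.3% and 42.6%, the ETS word CCGGAAG in 17.3% and 8.52%, and TGACG in 38.5% and 21.2%. CCAAT was in 32.7% and 32.0%, TATAAA in 3.85% and 10.7%, and the NRF1 word GCATGCGC in 3.85% and 2.63%. No one of these words contains another. Member windows had a median GC content of 65.8% against 58.0% over all windows, while that of EIF3F was 48.4%, that of EIF4A2 51.6% and that of EIF1AX 66.0%. A word in a window is a description and not a binding site.

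None of the factors of scanning and start codon choice passed. EIF1, which keeps the ribosome from starting at poor codons, stood at 312 and 360.2 RPKM in Huh1, and Huh7 gave 232 and 279 RPKM (log2 fold change 0.23, SE 0.058, limma adjusted p = 0.0783). Its paralog EIF1B stood at 46.4 and 49.8 RPKM in Huh1 cells and 71.2 and 101 RPKM in those of Huh7. The EIF1B ratio was 1.07 in Huh1 (95% interval 0.957 to 1.21) and 1.42 in Huh7 (95% interval 1.295 to 1.55), and EIF1B did not pass over both lines (0.30, limma adjusted p = 0.151). Both eIF1 genes were higher with ODC1 siRNA in each line, with neither past the threshold.

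EIF1AX encodes eIF1A, which works beside eIF1 on the scanning ribosome. It stood at 29.8 then 23.8 RPKM in Huh1, with 185 then 149.7 RPKM for Huh7. Its log2 value was lower by 0.31 in each line (-0.31, SE 0.069, limma adjusted p = 0.0612), and it passed with upper quartile scaling (adjusted p = 0.0329) and with a trend on counting variance (adjusted p = 0.0414). EIF1AX has a close copy on the Y chromosome, one of the genes left out, and how reads that fit both were divided is not stated in the sources used here. EIF1AD stood at 16.0 and 15.6 RPKM in Huh1, and Huh7 gave 12.6 and 10.2 RPKM.

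EIF5, the GTPase activator of eIF2, opposes EIF1 in start codon choice. It stood at 66.7 and 61.9 RPKM in Huh1 cells and 79.6 and 65.1 RPKM in those of Huh7 (log2 fold change -0.20, limma adjusted p = 0.21), and in Huh7 its ratio was 0.818 (95% interval 0.785 to 0.852). The level of EIF1 was 4.68 times that of EIF5 with control and 5.82 times with ODC1 siRNA in Huh1, and 2.92 and 4.28 times in Huh7. The EIF1 to EIF5 ratio was therefore higher with ODC1 siRNA in each line, from members that did not pass singly. Both were chosen after their values were seen, and with EIF1 higher and EIF5 lower the direction of the ratio was fixed.

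EIF6, which keeps the large ribosomal subunit from joining too early, lay just outside the threshold. It stood at 227 then 266 RPKM in Huh1, with 171 then 222 RPKM for Huh7 (log2 fold change 0.30, SE 0.064, limma adjusted p = 0.0525). It passed with upper quartile scaling (adjusted p = 0.0318) and with a trend on counting variance (adjusted p = 0.0491). EIF5B, the GTPase of subunit joining, was at 55.1 and 54.6 RPKM in Huh1, and Huh7 gave 46.8 and 43.01 RPKM.

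**Figure D3:**
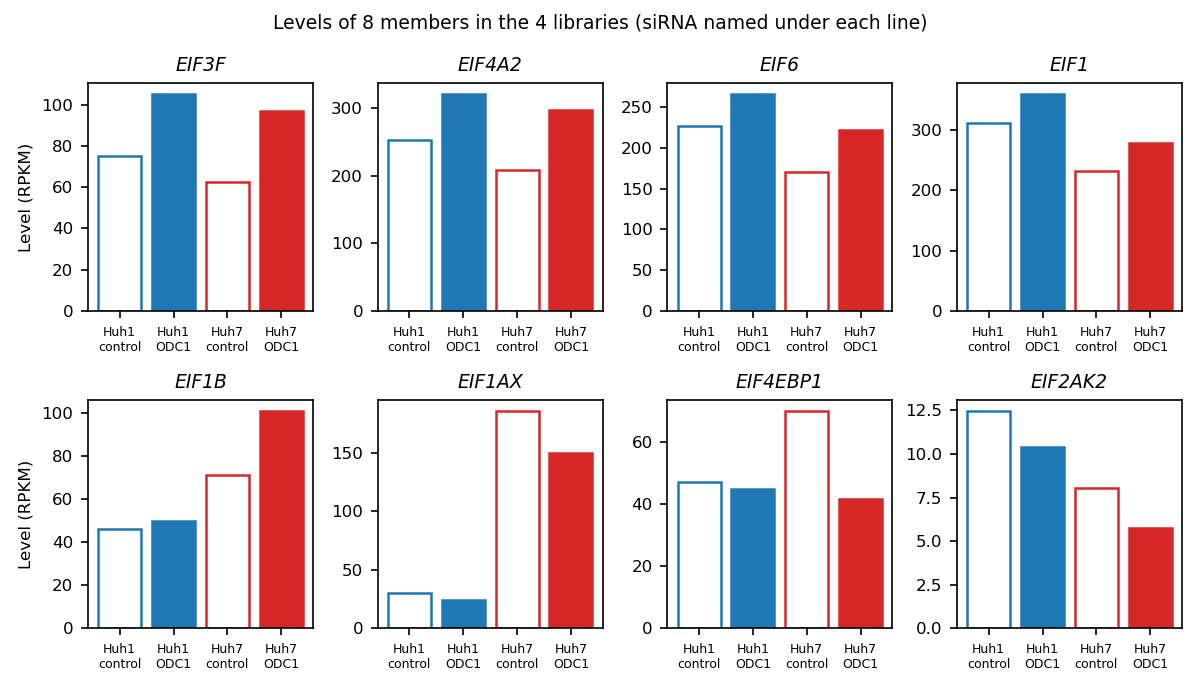
Level (RPKM, axis from 0) of 8 members in the 4 libraries, 1 bar per library, blue for Huh1 and red for Huh7, open for control and filled for ODC1 siRNA, with no error bars since each bar is 1 library. EIF3F, EIF4A2, EIF6, EIF1 and EIF1B are higher with ODC1 siRNA in each line, EIF1AX and EIF2AK2 are lower in each, and EIF4EBP1 differs by more in Huh7 (69.9 to 41.6 RPKM) than in Huh1 (47.1 to 44.7 RPKM).

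The eIF2 subunits, which carry the initiator tRNA, were nearly flat. EIF2S1, the alpha subunit that the kinases phosphorylate, stood at 35.6 and 33.5 RPKM in Huh1 cells and 49.5 and 49.8 RPKM in those of Huh7. EIF2S3, the GTP-binding gamma subunit, stood at 75.4 then 74.3 RPKM in Huh1, with 127 then 129 RPKM for Huh7. EIF2S2, the beta subunit, stood at 97.5 and 94.7 RPKM in Huh1, and Huh7 gave 121 and 105 RPKM. Over the eIF2 genes the log2 changes lay between -0.20 and 0.02, and none passed in limma. EIF2A and EIF2D, which can deliver tRNA without eIF2, lay between -0.04 and 0.12.

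The 5 eIF2B genes, whose products recharge eIF2 with GTP, had a median of -0.04 in Huh1 and 0.11 in Huh7, and none passed. EIF2B1, the highest of them, stood at 29.6 and 30.2 RPKM in Huh1 cells and 40.1 and 42.6 RPKM in those of Huh7. EIF2B2, the beta subunit, stood at 24.05 then 25.8 RPKM in Huh1, with 20.4 then 29.2 RPKM for Huh7. EIF2B2 was the member of this group with the largest difference, with ratios of 1.07 in Huh1 and 1.43 in Huh7. The mean change of EIF2B2 over both lines was 0.29 on the log2 scale (limma adjusted p = 0.187). EIF2B3 and EIF2B4 were the lowest, between 15.8 and 18.7 RPKM in all libraries.

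The 4 EIF2AK kinases each answer to a different stress, and none passed. EIF2AK1 (HRI), the heme-regulated kinase, was the highest at 58.97 and 63.02 RPKM in Huh1, and Huh7 gave 75.3 and 68.3 RPKM. EIF2AK2 (PKR), activated by double-stranded RNA and induced by interferon, stood at 12.5 and 10.4 RPKM in Huh1 cells and 8.07 and 5.74 RPKM in those of Huh7 (log2 fold change -0.34, limma adjusted p = 0.147). It was lower with ODC1 siRNA in both lines. EIF2AK3 (PERK), the kinase of the endoplasmic reticulum, stood at 7.70 RPKM with either siRNA in Huh1, and Huh7 gave 12.3 and 13.5 RPKM. EIF2AK4 (GCN2), which senses uncharged tRNA, stood at 14.2 then 14.3 RPKM in Huh1, with 15.8 then 12.1 RPKM for Huh7. Its log2 change was 0.01 in Huh1 and -0.36 in Huh7, and no test was made of how the lines differ in it.

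Of the 4E-binding proteins, EIF4EBP1 differed by far more in Huh7. It stood at 47.1 and 44.7 RPKM in Huh1, and Huh7 gave 69.9 and 41.6 RPKM. The ratio was 0.948 in Huh1 (95% interval 0.833 to 1.08) and 0.595 in Huh7 (95% interval 0.524 to 0.676), from 732 and 365 reads in Huh7, and it did not pass over both lines (log2 fold change -0.40, SE 0.134, limma adjusted p = 0.159). EIF4EBP1 is a target of ATF4 and MYC in other systems. The siRNA effect in 1 line has no replicate, and no test compared it with that in Huh1.

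EIF4EBP2 was level, at 36.9 and 36.95 RPKM in Huh1 cells and 37.9 and 35.6 RPKM in those of Huh7. EIF4EBP3 stood at 10.4 then 8.38 RPKM in Huh1, with 5.46 then 3.68 RPKM for Huh7 (log2 fold change -0.37, limma adjusted p = 0.135), on as few as 26 reads. The gene overlaps a readthrough transcript from the neighbouring gene ANKHD1, and how shared reads were counted is not known here. Summed over the 3 genes, the 4E-binding proteins stood at 4.91 and 4.76 times the level of EIF4E in Huh1, and at 5.54 and 3.56 times in Huh7. The Huh7 library with ODC1 siRNA thus had the lowest such ratio. In Huh7 all 3 genes were lower and EIF4E higher with ODC1 siRNA, so the direction of the ratio there was fixed by these values.

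The rest of eIF4F differed little. EIF4E, the cap-binding subunit, was low beside EIF4A1, EIF4A2 and EIF4G1, at 19.2 and 18.9 RPKM in Huh1, and Huh7 gave 20.4 and 22.7 RPKM. EIF4G1, the scaffold, stood at 212 and 199 RPKM in Huh1 cells and 182 and 176 RPKM in those of Huh7, between 7.77 and 11.0 times EIF4E. EIF4G3, a second scaffold and lower than EIF4E in each library, stood at 11.9 then 11.8 RPKM in Huh1, with 20.3 then 21.5 RPKM for Huh7. EIF4B, EIF4H, EIF4A3 and EIF4ENIF1, which act with or beside the helicase or bind eIF4E, lay between -0.15 and 0.004 on the log2 scale in the lines. None of these passed in limma. EIF4E2, a cap-binding relative linked to repression and to hypoxia, was at -0.08 and 0.005. The Argonaute genes lay between -0.34 and 0.04, with EIF2C1 the highest of them in Huh1 (17.6 and 16.9 RPKM) and EIF2C4 the lowest in each library (1.5 to 3.22 RPKM).

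Genes that act with the initiation factors were read from 4 lists. Of 19 initiation partners tested, 2 rose and none fell, beside 1.5% and 0.615% of all transcripts, with medians of 0.03 in Huh1 and 0.01 in Huh7. MKNK2, a kinase that phosphorylates eIF4E, stood at 14.3 and 20.04 RPKM in Huh1, and Huh7 gave 11.8 and 18.1 RPKM (log2 fold change 0.51, limma adjusted p = 0.0349). DENR, a factor of reinitiation and ribosome recycling, stood at 20.4 and 27.2 RPKM in Huh1 cells and 38.5 and 57.7 RPKM in those of Huh7 (0.49, limma adjusted p = 0.031). LARP1, which binds mRNAs of the translation machinery, was at -0.28 and -0.42 (limma adjusted p = 0.0514).

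Of 12 genes of the eIF2 phosphorylation cycle, 1 rose and none fell, beside the same shares of all transcripts, with medians of 0.11 in Huh1 and 0.26 in Huh7. It was PPP1R15A (GADD34), which directs the phosphatase that reverses eIF2 phosphorylation, at 16.6 then 26.4 RPKM in Huh1, with 28.4 then 66.01 RPKM for Huh7 (0.91, limma adjusted p = 0.0163). The calls of MKNK2, DENR and PPP1R15A were lost with no filter, without trend and without the line term, where 0 of all transcripts passed. Whether they held with the other alternatives is not given here. None of the 11 genes of mTORC1 and S6 kinase and none of the 9 genes of elongation and termination passed. Among the latter EEF1A1 was at 0.08 and 0.11 and EEF2 at 0.08 and 0.09.

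The second comparison was between the lines, again with limma, with the siRNAs as the repeat. Of 51 members, 17 were higher in Huh7 and 18 lower, which is 33.3% and 35.3%, where 43.1% and 30.8% of all transcripts passed. Most of the transcriptome thus differed by this test, and the members' share is near that background. The labels do not say whether the libraries of a line came from independent cultures. These p-values thus cannot be taken to cover the spread between independent cultures. The median difference, Huh7 minus Huh1, was 0.01 with control siRNA and 0.02 with ODC1 siRNA over the members, beside 0.14 and 0.12 over all transcripts. After quantile normalization the latter were 0.01 and 0.02, so a difference of this size depends on the scaling. EIF2B3, EIF2B4, EIF3I and EIF4H changed sign with a scaling and are given no direction, and 28 members passed in the same direction with each of the 3 scalings.

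The largest line difference was that of EIF1AX, at 29.8 RPKM in Huh1 and 185 RPKM in Huh7 with control siRNA. The Huh7 level was 6.23 times that of Huh1 with control and 6.296 times with ODC1 siRNA (log2 difference 2.60, SE 0.069, limma adjusted p = 8.79e-09). EIF1AX and EIF2S3 are the 2 members on the X chromosome in GENCODE release 29, and EIF2S3 was also higher in Huh7, by 0.76 (limma adjusted p = 9.97e-06). EIF4E3, a cap-binding relative, was at 0.227 and 0.323 RPKM in Huh1, and Huh7 gave 3.61 and 3.41 RPKM (1.82, limma adjusted p = 9.67e-06). It was close to the limit of detection in Huh1.

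The line calls are given by complex as counts, beside the 43.1% of all transcripts called higher in Huh7 and the 30.8% called lower. All 3 eIF2 genes were higher in Huh7, EIF2S1 by 0.51 and EIF2S2 by 0.23 beside EIF2S3. EIF2S2 lost its call with both other scalings. Of the 12 eIF3 genes 7 were lower in Huh7, 3 higher and 2 did not pass. EIF3H was lower by 0.64 (limma adjusted p = 1.73e-05), at 236 RPKM in Huh1 and 151 RPKM in Huh7 with control siRNA. EIF3K was lower by 0.63 and EIF3E and EIF3A by 0.50 and 0.45. EIF3L ran the other way, at 102 and 105 RPKM in Huh1 cells and 156 and 146 RPKM in those of Huh7 (0.54, limma adjusted p = 9.84e-05). EIF3K and EIF3L are neighbours in the eIF3 complex, and their transcripts differed in opposite directions between these lines. EIF3B and EIF3G were higher in Huh7 by 0.17 and 0.28, though EIF3B did not pass with upper quartile scaling.

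Paralogs also divided differently in the lines. EIF1 was lower in Huh7 by 0.40 and EIF1B higher by 0.81 (limma adjusted p = 8.36e-05, but 0.0792 with no filter), so that EIF1B made up 12.9% and 12.2% of their summed level in Huh1 and 23.5% and 26.6% in Huh7. EIF4G3 was higher in Huh7 by 0.77 and EIF4G1 lower by 0.20, a call that quantile normalization ended, and EIF4G3 made up 5.33% and 5.58% of their sum in Huh1 and 10.03% and 10.9% in Huh7. EIF4E2 stood at 41.1 then 38.8 RPKM in Huh1, with 64.6 then 64.8 RPKM for Huh7, higher by 0.68 (limma adjusted p = 4.07e-05), while EIF4E did not pass (0.17, limma adjusted p = 0.122). In each of these pairs the libraries of the lines did not overlap. EIF4E was separated in this way without passing, and the share of all transcripts so separated was not counted.

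**Figure D4:**
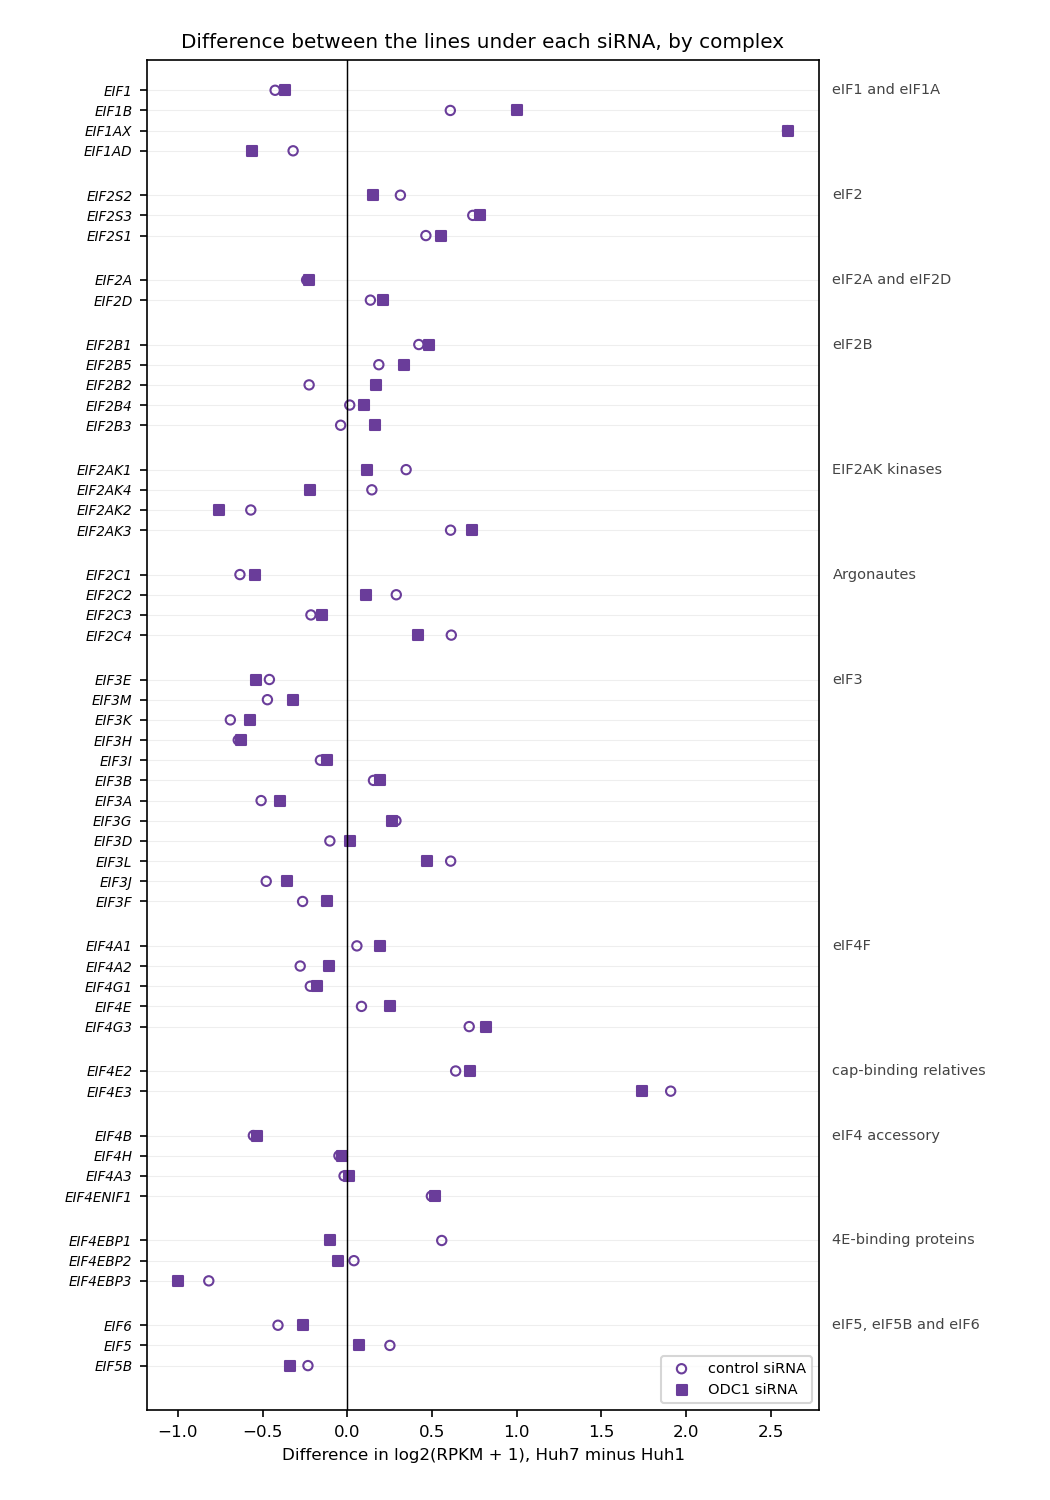
Difference in log2(RPKM + 1), Huh7 minus Huh1, for each of the 51 members under control siRNA (open circles) and ODC1 siRNA (filled squares), grouped by complex, 1 library per line and siRNA. EIF1AX lies at 2.60 under both, the eIF2 genes to the right of 0 and most eIF3 genes to the left, and EIF4EBP1 moves from 0.56 with control to -0.10 with ODC1 siRNA.

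Among regulators, EIF2AK3 was higher in Huh7 by 0.67 (limma adjusted p = 0.000338) and EIF2AK1 by 0.23, EIF2AK2 was lower by 0.66 (limma adjusted p = 0.000509, but 0.0528 with no filter), and EIF2AK4 did not pass. The call of EIF2AK1 was lost with both other scalings. EIF4EBP3 was lower in Huh7 by 0.91 (limma adjusted p = 0.000106). EIF4EBP1 did not pass, since its line difference was 0.56 with control and -0.10 with ODC1 siRNA. EIF4B, a cofactor of the helicase, was at 212 and 209.9 RPKM in Huh1, and Huh7 gave 144 and 145 RPKM, lower by 0.54 (limma adjusted p = 4.9e-05). EIF2C1 was lower by 0.59, at 17.6 and 16.9 RPKM in Huh1 cells and 10.97 and 11.3 RPKM in those of Huh7.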

How the data were processed

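Per the labels' protocols, total RNA went into Illumina TruSeq RNA libraries. The submitters' processing notes list CASAVA 1.8.2, TopHat2 2.0.9 and hg19 with no role for each; how reads were counted, on which annotation and whether by strand is not stated in the sources used here. The authors deposited 1 table per library of RPKM values per RefSeq transcript, normalized to transcript length and library depth; the tables have no header, and the unit was read from the values, whose lowest steps scale with length and depth. Depth was taken as the whole number of reads that most values under 0.3 RPKM give at GENCODE release 29 lengths. For 17 of the 52 members all 4 values were whole reads (tolerance 0.01) at a length within 25% of the GENCODE one. Counting intervals (95%, exact Clopper-Pearson) are given among these alone. For EIF3H, EIF2B1, EIF2B2, EIF2B3, EIF2C2 and EIF2C3 the length and all 4 read numbers share a common factor. A shorter length would thus give whole reads too, and their intervals are not printed. Values were analysed as log2(RPKM + 1), which understates the change of low genes. The model, in limma 3.58.1 under R 4.3.3, held a line term and an siRNA term with a variance trend on intensity. It covered the 12039 transcripts reaching 1 RPKM in any library, and p-values were adjusted by Benjamini-Hochberg over all of them (threshold 0.05). The code was tested on simulated data. Both libraries of a line form a pair, so the line term is the block. Inside a line, 1.5-fold changes were counted among transcripts reaching 1 RPKM in either library. Alternatives were scaling by quantiles or by the upper quartile, a smaller pseudocount (0.1), dropping the filter, raising it to 5 RPKM, no trend, a trend on the variance that counting gives, each term left out, a 2-fold rule and each library left out. Named were all members called or past the fold rule (at most 8 each way between the lines), the highest and lowest of each complex, all EIF2AK kinases and 4E-binding proteins, and at most 4 genes of each further list. EIF1, EIF5, EIF6 and other members outside that rule were chosen after their values were seen. Members and lists were chosen with earlier results of these data known.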

Additional observations from a re-analysis of the deposited data

How the results depend on the processing

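The 2 members called over both lines became 1 with quantile normalization or a pseudocount of 0.1 (EIF3F), and 4 with upper quartile scaling or the trend on counting variance (with EIF1AX and EIF6). They stayed 2 with a filter at 5 RPKM and became 0 with no filter, where 7 members had an unadjusted limma p under 0.05, and 0 without trend, where 6 did. Over all transcripts the calls went from 255 to 52 with quantile normalization, 485 with upper quartile scaling, 54 with the pseudocount of 0.1, 108 with the filter at 5 RPKM, 324 with the trend on counting variance, and 0 with no filter, without trend or without the line term. In those 3 alternatives the whole table lost its calls. They cannot alter the changes of EIF3F (0.55) and EIF4A2 (0.43), since each line has both siRNAs and the values are the same. Leaving out the line term, the block that pairs the libraries of a line, gave 0 calls for the siRNA and 0 members with an unadjusted p under 0.05; leaving out the siRNA term gave 26 calls between the lines, all among the 35. The 35 calls became 21 with no filter and ranged from 26 to 36 with the other alternatives. The 2 members past 1.5-fold in Huh7 became 0 at 2-fold. Leaving out 1 library leaves no residual degree of freedom, so it gives the value of the other line and no test. The median change of all members over both lines, -0.03, then ranged from -0.0349 to -0.00575, and that of the 4E-binding proteins, -0.37, from -0.46 to -0.0754, the latter without either Huh7 library. The cause of the lost calls was not tested. None of the single-member values recomputed, 48 for the siRNA and 127 for the lines, reversed. Filters, trends and dropped terms leave a member's change as it is, so only the scalings and the pseudocount could have reversed one. EIF2B3, EIF2B4, EIF3I and EIF4H, whose line difference changed sign with a scaling, were not among these members. Of the members at a few RPKM, EIF4EBP3 rests on as few as 26 reads, and whole reads were not recovered for EIF4E3 and EIF2C4.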
